A study of Sorghum bicolor with 5 samples.

Results

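The 100 most abundant transcripts of young sorghum leaves were followed in 5 plants of the epi-F3 lines. They are the genes with the highest mean over the 5 libraries in CPM, the count of a gene divided by the library's total in genes and multiplied by 1000000, among 35567 gene rows, after 7 genes had been left out, 6 of them among the 100 most abundant and the other at rank 705. That mean chose the members, so their levels and ranks are a description. The difference between the lines was not a criterion, but 3 of the 5 libraries averaged are epi-F3 low, so the choice leans towards genes that are higher in that line. The plants were 3 of epi-F3 low (line 15, not enhanced in growth by its label) and 2 of epi-F3 high (line 68, enhanced by its label), with 1 library from the leaf of each plant. All 5 share the Tx430 background with its *dw3* allele and descend from crosses of wild-type Tx430 with transgene-null progeny of plants in which RNAi had suppressed *MSH1*, whose product works in plastids and mitochondria. No wild-type plant was among them, and each line is 1 selected lineage. The plants were 4 weeks old by the labels, while the paper's results give 24 days. They were kept at 28°C in the 14 h of light and at 22°C at night. The plants of epi-F3 low carry the numbers 1, 2 and 3 and those of epi-F3 high the numbers 1 and 3, as in their titles.

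A green leaf spends much of its messenger RNA on the photosynthetic apparatus. Light-harvesting proteins pass energy to photosystems II and I, electrons leave photosystem I for ferredoxin and NADP, and the carbon-fixing enzymes use the products. Most of these proteins are encoded in the nucleus, made in the cytosol with a transit peptide and imported into the plastid, where peptidases and chaperones process them. The levels of many such transcripts are known to vary with light, time of day and leaf age.

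Only 13 of the 100 members could be named, by the Arabidopsis homolog in the study's own table of differing genes, and the other 87 are given by identifier. The table holds 1089 genes that the study chose for a difference between these same lines, so the line differences of the 13 are not independent of their having a name. Among them are a light-harvesting protein, 3 subunits of photosystem I and other plastid proteins; no marker of leaf tissue could be checked beyond these. One member has an ENSRNA identifier, which the files do not describe further. Lengths could not be matched to the identifiers, so CPM orders genes by reads and not by molecules.

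Libraries held 48372266 to 68979436 counts in genes, and the smallest count of any member in any library was 6000, for which counting error alone is 1.29% of the value. Among genes that are no members, those paired with *MCM2* to *MCM7*, the replication helicase of dividing cells, summed to 26.4 to 48.0 CPM over the epi-F3 low plants, and to 26.0 in plant 1 and 372 in plant 3 of epi-F3 high. The 44 genes of the study's table that are paired with an organelle-encoded Arabidopsis gene summed to 80.9 to 208 CPM over the epi-F3 low plants, and to 1223 in plant 1 and 287 in plant 3 of epi-F3 high. Both sums are over genes of the study's table, which were chosen for differing between these lines. Any difference of epi-F3 high from low in them thus follows in part from that choice. In the first sum plant 1 of epi-F3 high was close to epi-F3 low plant 2, at 26.0 and 26.4 CPM. Only plant 3 of epi-F3 high stood apart there. The 2 epi-F3 high plants differed from each other, plant 3 being higher in the first sum and plant 1 in the second. The part of this in the results below was not tested. In whole leaf, fewer cells of a type and less RNA per cell cannot be told apart.

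The 100 members took between 12.2 and 16.7% of all counts in genes. Their share was 12.9, 14.2 and 16.7% in epi-F3 low plants 1, 2 and 3, and 12.7 and 12.2% in epi-F3 high plants 1 and 3. Both epi-F3 high plants were below every epi-F3 low plant, though plant 1 of each line differed little. Epi-F3 low averaged 14.6 ± 1.94% (SD, n = 3) against 12.4 ± 0.351% for epi-F3 high (SD, n = 2), a difference of -2.14 percentage points (exact permutation test, two-sided, p = 0.2, Benjamini-Hochberg adjusted 0.3 over 3 shares, where the smallest p possible is 0.1). Without epi-F3 low plant 3 the difference was -1.09 percentage points. The first 50 members took 9.67 ± 1.29 and 8.26 ± 0.371% (exact permutation test, p = 0.3, adjusted 0.3) and the first 10 took 3.58 ± 0.321 and 3.05 ± 0.482% (exact permutation test, p = 0.3, adjusted 0.3; SD, n = 3 and n = 2). With 3 plants against 2 no share could have passed a threshold of 0.05.

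**Figure D1:**
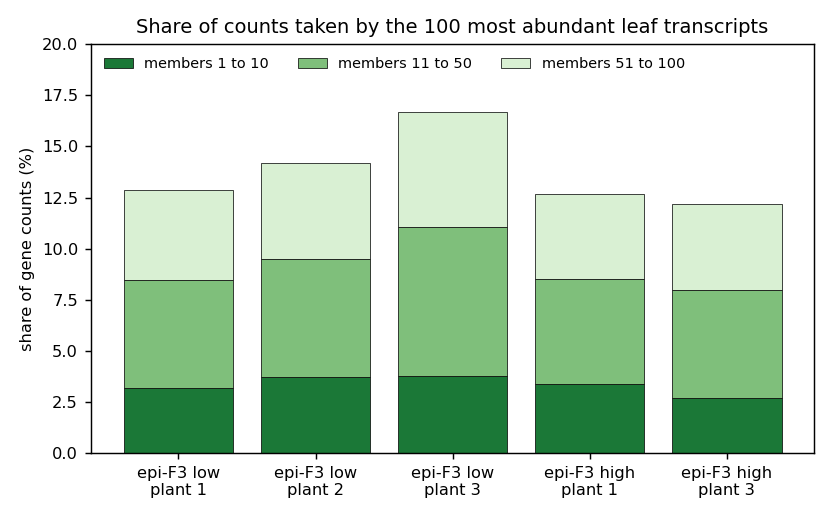
Share of counts in genes (%, y axis) taken by members 1 to 10, 11 to 50 and 51 to 100 in each of the 5 libraries (x axis). The stacked bars reach 16.7% in epi-F3 low plant 3 and 12.2% in epi-F3 high plant 3, the highest and the lowest.

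Abundance dropped steeply over the first members and then evenly. *SORBI_3003G002300*, the first member, had a mean of 8345 CPM, the fifth 2973 CPM, the tenth 2148 CPM and the 50th 1126 CPM. Its levels were 8239, 9597 and 8103 CPM in epi-F3 low and 9517 and 6268 CPM in epi-F3 high, and it was at rank 2 of all genes in each library, the only member whose rank did not move. It is not paired with a name in the sources used here. The second member was *THIC*, which makes the pyrimidine part of thiamine in plastids, and the tenth *LFNR1*, the leaf ferredoxin-NADP reductase that ends photosynthetic electron transport. The other 7 of the first 10, *SORBI_3009G183700*, *SORBI_3004G068300*, *SORBI_3003G040900*, *SORBI_3007G136900*, *SORBI_3004G353100*, *SORBI_3002G386400* and *SORBI_3001G177000*, had means of 2319 to 3330 CPM and carry no name. At the other end, *SORBI_3008G053200* (769.8 CPM) and *SORBI_3009G234600* (767 CPM) were the last members, and *SORBI_3002G305700* (762 CPM) and *SORBI_3006G058100* (758 CPM) stood just outside.

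Most members kept a high rank in all plants, and a few did not. Of the 100, 57 were among the 100 most abundant genes of every single library when the 7 genes were left out, and each library alone kept 80 (epi-F3 high plant 1) to 90 (epi-F3 low plants 1 and 2) of them. The highest and lowest rank of a member lay a median of 52.5 places apart, and 11 members passed beyond rank 200 in at least 1 library. In 9 of these 11 the worst rank was in epi-F3 high plant 1. *SORBI_3009G234600* was at rank 30 in epi-F3 high plant 3 and at rank 1755 in plant 1 of the same line, the widest move of any member. *SORBI_3003G107300* was at rank 38 and 656 in the same plants. The feature *ENSRNA049470939* was at rank 41 in epi-F3 high plant 1 and 601 in epi-F3 low plant 3.

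**Figure D2:**
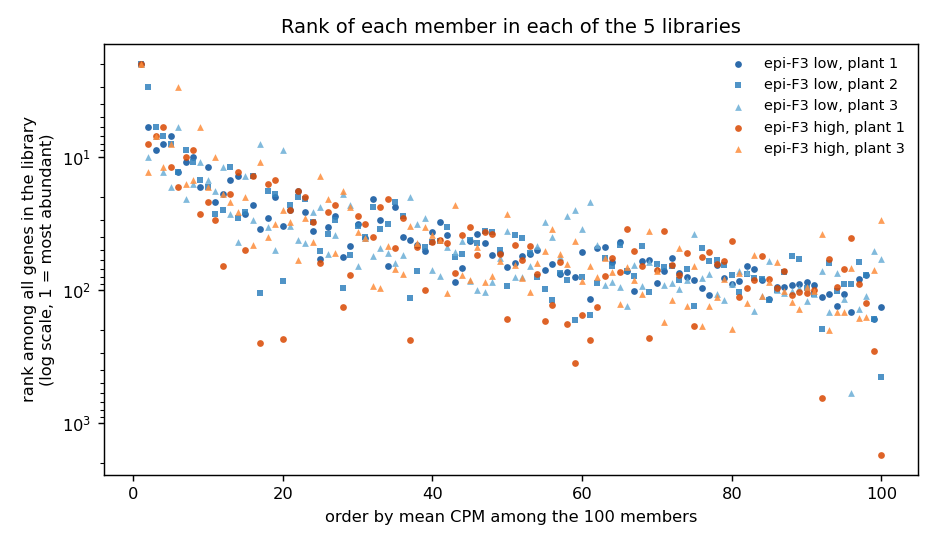
Rank of each member among all genes in each library (y axis, log scale, 1 is the most abundant) against its order by mean CPM (x axis), with colour for the line and plant and shape for the plant number. The first member stays at rank 2, and the points that hang far below the band are mostly epi-F3 high plant 1.

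The level of a member differed between its highest and lowest library by a median of 1.78 times, from 1.12 to 11.7 times. In 24 members this ratio was under 1.5, and in 16 it was over 3. Those most even were *SORBI_3001G252000* at 1264, 1326 and 1189 CPM in epi-F3 low and 1227 and 1304 CPM in epi-F3 high, *SORBI_3003G367500* with a ratio of 1.16, *SORBI_3002G291200* with 1.17, *SORBI_3001G491000* with 1.18 and *SORBI_3004G272100* with 1.20. The widest were *SORBI_3009G234600* at 634, 313 and 1311 CPM in epi-F3 low and 124 and 1452 CPM in epi-F3 high, *SORBI_3010G241000* at 1279, 825 and 3830.3 CPM and 432 and 2236 CPM, and *SORBI_3002G384400* at 1339, 903 and 3735 CPM and 450.0 and 1556 CPM. In all 3, epi-F3 high plant 1 was lowest, epi-F3 low plant 2 next lowest, and the plants numbered 3 of both lines were highest. *SORBI_3009G143100* (6.01 times) and *SORBI_3001G070500* (5.87 times) completed the 5 widest and had that order too. The mean absolute deviation from the line mean was taken per gene on the log2 scale. Its median was 0.22 over the members, against 0.16 over the 11758 tested genes with a mean of at least 10 CPM. Choice by mean CPM can favour genes that are very high in 1 library, so part of this may follow from the choice. The biological coefficient of variation estimated by edgeR had closer medians, 0.245 for the members and 0.224 for 11746 genes with a mean of at least 10 TMM-scaled CPM.

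No profile held for all members, and the 2 most frequent held for 25 and 24 of them. The lowest library was epi-F3 high plant 3 for 49 members and epi-F3 high plant 1 for 32, while over all tested genes these shares were 13.6 and 21.8%. The highest was epi-F3 low plant 3 for 41, epi-F3 low plant 2 for 30 and epi-F3 high plant 1 for 18, and over all tested genes 15.3, 9.99 and 25.03%. The most frequent pairs were highest in epi-F3 low plant 3 with lowest in epi-F3 high plant 1, in 25 members, and highest in epi-F3 low plant 2 with lowest in epi-F3 high plant 3, in 24. Epi-F3 high plant 3 was also lowest in 14 members highest in epi-F3 high plant 1 and in 10 highest in epi-F3 low plant 3. The 32 members lowest in epi-F3 high plant 1 took 2.36% of the counts there, 4.63% in epi-F3 high plant 3 and 3.58, 3.30 and 6.74% in epi-F3 low plants 1, 2 and 3. The 49 lowest in epi-F3 high plant 3 took 5.34% there, 7.93% in epi-F3 high plant 1 and 7.23, 8.59 and 7.70% in epi-F3 low. These shares follow from how the members were sorted, and they show only that the total hides opposite moves within epi-F3 high.

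The rank order over the 100 members was most alike between epi-F3 low plant 2 and epi-F3 high plant 1, with a Spearman rho of 0.88, and next between epi-F3 low plants 1 and 2, with 0.80, and between the plants numbered 3 of both lines, with 0.77. It was least alike between epi-F3 low plant 3 and epi-F3 high plant 1, with 0.23, and 0.29 between the 2 epi-F3 high plants. These are descriptions over 100 genes that share their libraries. Both plants numbered 3 were above the 3 others in 29 members and below them in 16, where 20.2 and 12.1% of all tested genes were. In 34 members epi-F3 high plant 3 was above plant 1 and epi-F3 low plant 3 above plant 2, in 43 it was the reverse in both lines, and in the other 23 the lines differed in direction.

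**Figure D3:**
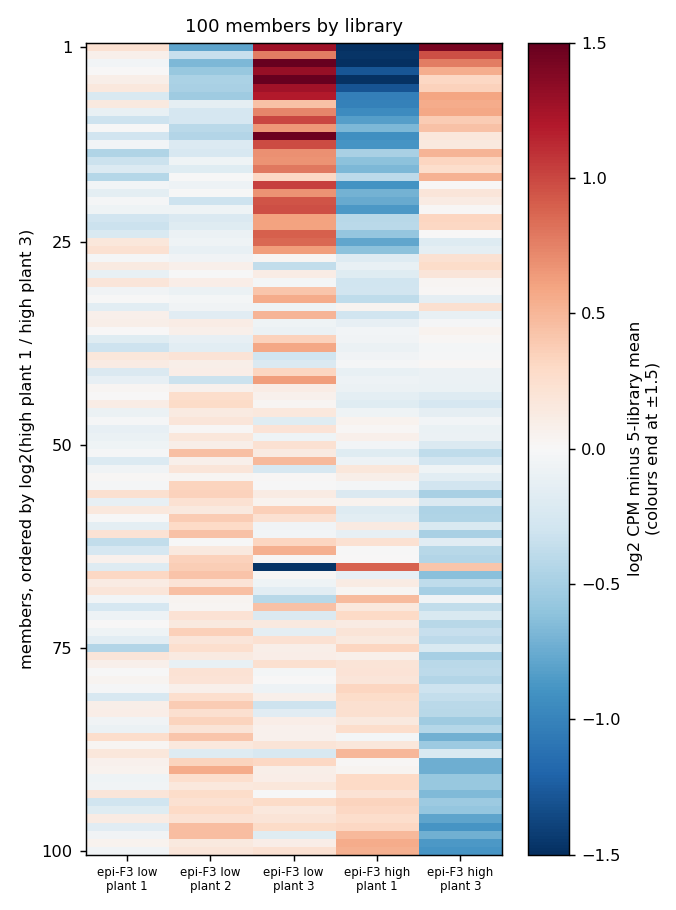
Log2 CPM of each member minus its mean over the 5 libraries (colour, ending at ±1.5), with libraries in columns and the 100 members in rows, ordered by the ratio of epi-F3 high plant 1 to plant 3. The upper rows are high in both plants numbered 3 and low in epi-F3 high plant 1, and the lower rows are mostly lowest in epi-F3 high plant 3.

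The 5 named members of the light reactions shared the first profile, with epi-F3 low plant 3 highest and epi-F3 high plant 1 lowest. *LHCB5* (*SORBI_3005G087000*), a minor antenna protein of photosystem II, stood at 1694, 1705 and 3481 CPM in epi-F3 low plants 1, 2 and 3 and at 981 and 1801 CPM in epi-F3 high plants 1 and 3. Its level in epi-F3 high plant 3 was within the range of epi-F3 low, so the lines overlapped on CPM. On TMM-scaled CPM they did not, with 978 and 1650 in epi-F3 high and 1662 in epi-F3 low plant 1, the lowest of that line. *LFNR1* (*SORBI_3003G431700*) stood at 2089, 2046 and 3093 CPM and at 1609 and 1902 CPM, both epi-F3 high plants below every epi-F3 low plant.

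The 3 subunits of photosystem I had the same highest and lowest plants. *PSAL* (*SORBI_3003G052500*), a subunit near the docking site of light-harvesting complexes, stood at 1081, 917 and 1749 CPM in epi-F3 low and at 561 and 844 CPM in epi-F3 high, without overlap. *PSAD2* (*SORBI_3001G046900*), a subunit on the stromal side where ferredoxin docks, stood at 1125, 893 and 1492 CPM and 629 and 876 CPM, also without overlap. *PSAO* (*SORBI_3006G073500*), a small subunit that takes part in balancing excitation between the photosystems, stood at 931, 907 and 1944 CPM and 513 and 960.1 CPM. There epi-F3 high plant 3 lay above epi-F3 low plants 1 and 2 on CPM. On TMM-scaled CPM it lay below them, at 879 against 913 and 967, and the lines did not overlap. The log2 fold changes of epi-F3 high over low were -0.95 (standard error 0.37) for *PSAL*, -0.91 (standard error 0.45) for *PSAO*, -0.85 (standard error 0.46) for *LHCB5*, -0.76 (standard error 0.32) for *PSAD2* and -0.57 (standard error 0.34) for *LFNR1*.

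The other 8 named members shared the second profile, each highest in epi-F3 low plant 2 and lowest in epi-F3 high plant 3. On CPM none of the 8 overlapped between the lines, where 4.24% of tested genes were lower without overlap. These 8 have a name because the study picked them for differing between the same lines, so nothing is read from that count. *THIC* (*SORBI_3001G138000*) stood at 3429, 4847 and 3515 CPM in epi-F3 low and 3399.5 and 1993 CPM in epi-F3 high, where epi-F3 low plant 1 and epi-F3 high plant 1 were nearly equal. On TMM-scaled CPM these plants stood at 3364 and 3390, so the lines of *THIC* overlapped there. *ISPG* (*SORBI_3004G207400*), an iron-sulphur enzyme of the plastid pathway to isoprenoids, stood at 889, 961 and 819.7 CPM and 648 and 538 CPM. *NMT1* (*SORBI_3009G218900*), which methylates phosphoethanolamine on the way to phosphocholine, stood at 1191, 1283 and 967 CPM and 876 and 619 CPM. Plant 3 was the lower of the epi-F3 high plants in each of these metabolic genes.

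Of the plastid protein machinery, *SPP* (*SORBI_3010G197000*), which cuts the transit peptide from imported proteins, stood at 1481, 1724 and 1239 CPM in epi-F3 low and 1173 and 909 CPM in epi-F3 high. *PREP1* (*SORBI_3004G307100*), which degrades the released peptides in plastids and mitochondria, stood at 1547, 1721 and 1354 CPM and 1271 and 786 CPM. *CLPC1* (*SORBI_3008G081900*), a stromal chaperone of the Clp protease and of protein import, stood at 1248, 1511 and 1479 CPM and 1214 and 719 CPM. In epi-F3 high plant 3 these 3 transcripts were all below 1000 CPM, and in the other 4 plants all were above it.

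*NYC1* (*SORBI_3003G010600*), a chlorophyll *b* reductase that acts when antenna complexes are dismantled, stood at 810.4, 1120.2 and 900.3 CPM in epi-F3 low and 724 and 633 CPM in epi-F3 high. *LOS1* (*SORBI_3003G291500*), elongation factor 2 of cytosolic translation, stood at 816, 1066 and 958 CPM and 732 and 598 CPM. Here both epi-F3 high plants were low and differed less from each other than in the plastid protein machinery. The log2 fold changes of the 8 members ran from -0.72 (*NMT1*, standard error 0.31) to -0.59 (*NYC1*, standard error 0.29). Those of the light reactions ran from -0.95 to -0.57. The paper chose its genes by a limit on the size of this change, so the smaller ends follow in part from that choice. The larger ends, -0.72 and -0.95, differed by less than the standard error of either. The widths of these ranges are therefore not compared. By edgeR's quasi-likelihood test all 13 had an adjusted p of 0.999, and over the alternatives it ran from 0.343 to 1.

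**Figure D4:**
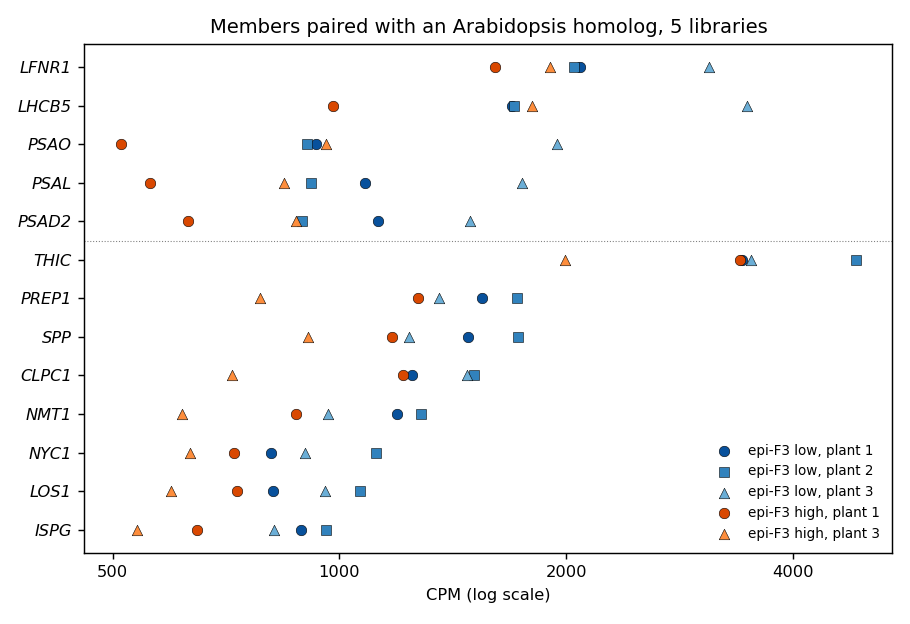
CPM (x axis, log scale) of the 13 members paired with an Arabidopsis homolog, 1 row per gene and 1 point per library, with blue for epi-F3 low, orange for epi-F3 high and shape for the plant number. Above the dotted line are the 5 genes of the light reactions, all lowest in epi-F3 high plant 1, and below it 8 others, all lowest in epi-F3 high plant 3.

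Other genes of these pathways could be counted only where the study's table names them. That table was chosen on plants of these same lines, where the paper names 3 plants of epi-F3 high and 2 are at hand here. The table holds 2 light-harvesting genes and 3 photosystem I genes, each with a negative log2 fold change, as had 47.4% of tested genes. Of these, 1 light-harvesting gene and all 3 photosystem I genes are members described above. On CPM, 0 of the 2 light-harvesting genes were lower without overlap. The table was chosen for line differences, so that percentage is no fair background, and nothing is read from the counts here. Of its 2 genes of thiamine synthesis, *THIC* and *THI1*, which makes the thiazole part, both stood lower in epi-F3 high, as did both genes of chlorophyll synthesis and breakdown and the 2 plastid peptidases. Some other lists went both ways, with 3 chaperones higher and 3 lower and 1 elongation or initiation factor higher and 3 lower. For the Calvin cycle 1 gene was higher and 1 lower. Lists were made by keyword in the homolog's description, which can also find genes outside a pathway. The keywords for cytochrome, plastocyanin and ferredoxin found *LFNR1* and *ISPG*, both lower, and a gene paired with *FAD8*, which was higher. Those for C4 enzymes found 1 gene, paired with *RP1*, which was higher. Neither list is read as a result about its pathway. Others went in 1 direction, with 14 histones higher and 0 lower. All 4 genes of ribosomal proteins and both of photorespiration and catalase were lower. The histones summed to 11.7 to 44.0 CPM over the epi-F3 low plants, and to 12.5 in plant 1 and 298 in plant 3 of epi-F3 high. No gene of these lists passed the quasi-likelihood test.

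Between the lines, 94 of the 100 members had a log2 fold change of epi-F3 high over low that was negative with TMM scaling. Their median was -0.29. Of the 23098 tested genes 47.4% were negative, with a median of 0.02. On mean CPM without that scaling, 83 members were lower in epi-F3 high. edgeR's quasi-likelihood test, with limits of 0.1 on adjusted p and 0.5 on the size of the log2 fold change, called 0 members and 0.00433% of the tested genes. At an unadjusted p under 0.05 there were 4 members, all lower, against 0.961% of tested genes lower and 2.26% higher. The exact test, DESeq2 and limma-voom also called 0 members, and at an unadjusted p under 0.05 they held 10, 14 and 7, all lower. Of tested genes, 1.03, 1.85 and 0.948% were lower at that p by these tests, and 2.84, 2.58 and 1.92% higher. With libraries scaled by their size alone, 83 members were lower with a median of -0.18, while the median of all genes moved to 0.13 and 34.8% of them were lower. The median was -0.47 without epi-F3 high plant 1 and -0.44 without epi-F3 low plant 1, but -0.21 without epi-F3 low plant 3, with 79 members lower, and -0.21 without epi-F3 high plant 3, with 68 lower. Since replicates are plants of 1 lineage per line, the tests measure the spread between these 5 plants only.

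On CPM, both epi-F3 high plants were below every epi-F3 low plant in 18 members and above in 2, where 4.24 and 14.1% of tested genes were. On TMM-scaled CPM these were 23 and 1 members, against 7.48 and 9.29%. Other abundant genes were also above the share of all tested genes. Among genes 101 to 200, 201 to 500 and 501 to 1000 by mean CPM, 12, 12.3 and 8.4% were lower without overlap on CPM. Higher without overlap were 1, 3.67 and 4.8%. Of the 18, 11 are named members, which came from the study's table, and 7 are among the 87 without a name. Those 87 had a median log2 fold change of -0.27, and 81 of them were lower in epi-F3 high. Without epi-F3 high plant 1 there were 52 members below all epi-F3 low plants (15.9% of tested genes) and without epi-F3 high plant 3 there were 47 (23.7%).

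The lowest unadjusted p values among the 18 belonged to *ISPG*, whose log2 fold change was -0.69 (standard error 0.26), *PSAL*, *SORBI_3009G233800*, *PSAD2*, *NMT1* and *LOS1*. The unnamed *SORBI_3009G233800* stood at 967, 962 and 1106 CPM in epi-F3 low and 756 and 626 CPM in epi-F3 high, and its log2 fold change was -0.65 (standard error 0.27). Of the 2 members above, the feature *ENSRNA049470939* stood at 599.7, 882 and 246 CPM in epi-F3 low and 1268 and 911 CPM in epi-F3 high, and its log2 fold change was 0.82 (standard error 0.50). On TMM-scaled CPM its lines overlapped. *SORBI_3002G363100* stood at 1293, 1385 and 1378 CPM and 1484 and 1708 CPM, a log2 fold change of 0.12 (standard error 0.27). All 8 had an adjusted p of 0.999 by edgeR's quasi-likelihood test.

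The lower level in epi-F3 high reached beyond the 100 members, and with all 5 libraries it was graded with abundance. The median log2 fold change was -0.25 in genes 101 to 200 by mean CPM, -0.20 in genes 201 to 500, -0.16 in 501 to 1000, -0.10 in 1001 to 2000, -0.04 in 2001 to 5000 and 0.04 in 5001 to 10000. The percentage of genes with a negative log2 fold change was 94 in the members. In the same classes it was 86, 80.7, 78.2, 69.5, 57 and 42.7. Without epi-F3 high plant 1 the median went from -0.47 in the members to 0.00 in genes 5001 to 10000, and without epi-F3 high plant 3 from -0.21 to 0.04. Without epi-F3 low plant 3 the first 4 classes were nearly level, at -0.21, -0.21, -0.20 and -0.17, and the members were not the lowest. With libraries scaled by size alone the medians of genes 1001 to 2000 and 2001 to 5000 were 0.01 and 0.07, with 48.6 and 36.1% of the genes lower. When the 100 genes were chosen on epi-F3 high alone, so that the choice favoured high levels in that line, 93 were members. The result is therefore largely that of the members and no separate check. Of these 100 genes 92 stood lower in epi-F3 high with TMM scaling, their median being -0.27.

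**Figure D5:**
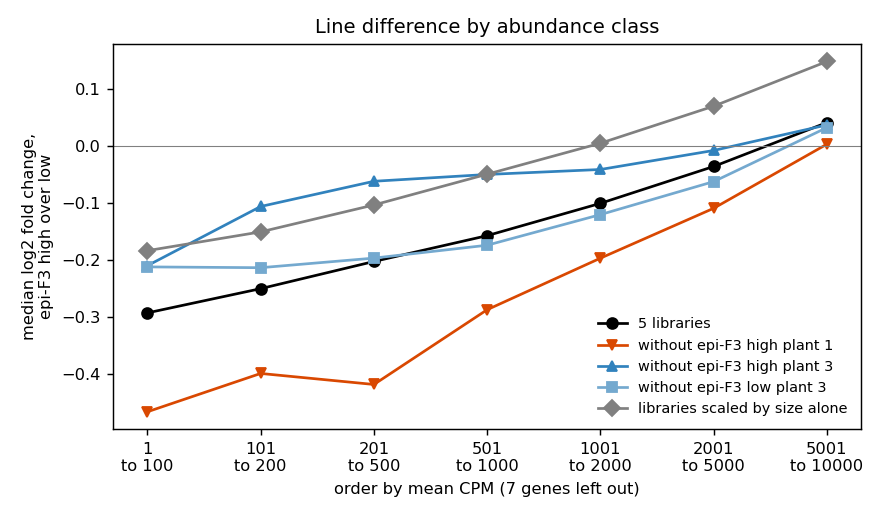
Median log2 fold change of epi-F3 high over low (y axis) in 7 classes of genes by mean CPM (x axis), with all 5 libraries, without each epi-F3 high plant, without epi-F3 low plant 3 and with libraries scaled by size alone. With all libraries the median goes from -0.29 in the 100 members to 0.04 in genes 5001 to 10000, while without epi-F3 low plant 3 the first 4 classes lie between -0.21 and -0.17.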

How the data were processed

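Raw counts per gene were deposited by the authors, who trimmed reads with Trim Galore 0.4.1, aligned them to NCBIv3 with STAR 2.7.3a, kept unique alignments and counted them with QoRTs 1.3.0 at a mapping quality of at least 25. Strand handling is not given in the sources used here. The 5 summary lines of each file were left out. Reads in no gene were 3.77 to 7.07% of reads and ambiguous ones 0.445 to 0.557%. Libraries held 48372266 to 68979436 counts in genes.

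CPM is the count divided by the library's total in genes, times 1000000. Genes with 10 or more counts summed over the 5 libraries (23098) were fitted with edgeR 4.0.16 in R 4.3.3 (TMM, quasi-likelihood test, no block), with p adjusted by Benjamini-Hochberg over all of them. All 100 members passed this filter. Standard errors were taken from the F statistic and are approximate. DESeq2 1.42.0 and limma 3.58.1 served as alternatives. Members, lists and tests were chosen with earlier results of these data known. Genes named are the first 10 members, those with the lowest p among members without overlap, those of widest and narrowest range, those at the limit of the 100, and the 13 with a homolog name. *SORBI_3003G107300*, the neighbouring members and those homolog-named members that are not first in a list were chosen after their values were seen. Lists by product description were reduced to those homologs, since the RefSeq gene table (NCBIv3) matched 0 identifiers. For that reason ranking per kilobase was not run and no sequence is shown.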

Additional observations from a re-analysis of the deposited data

How the results depend on the processing

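Over all genes the count of calls was 1, and 12 without a filter, 0 with filterByExpr, 51 with the exact test, 68 with DESeq2, 0 with limma-voom, 0 with limits of 0.05 on adjusted p and 1 on the log2 fold change, 744 at an unadjusted p under 0.05, and 0 to 80 when 1 library was left out. Members called were 0 under every fit and 4 at an unadjusted p under 0.05, and 0 to 19 members had an unadjusted p under 0.05 when 1 library was left out. With a replicate block by plant number 70 genes and 0 members were called, and by replicate number 7 genes and 0 members. Deviations from the line means correlated at -0.01 for plants numbered 1 and 0.49 for those numbered 3 (-0.56 for the second replicate number). The deviations of epi-F3 high plants 1 and 3 were equal and opposite by construction. These correlations therefore cannot decide whether the numbers pair the plants. When 1 library was left out, the median log2 fold change of the members was -0.47 to -0.21. The number of members with a negative log2 fold change was then 68 to 95, and the number below all epi-F3 low plants 19 to 52. The difference in the share of counts was -2.99 to -1.09 percentage points for the 100 members. Signs of the 16 log2 fold changes given for single genes held under every alternative. Fits without an epi-F3 high plant hold 1 plant of that line and assume that it varies like epi-F3 low. The choices of the 100 genes on 1 line, and the counts of members without overlap under TMM scaling or with 1 library left out, were added after seeing the data.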

Other observations

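By their identifiers the members lie on all 10 chromosomes, with 15 each on chromosomes 1, 2 and 3, 12 on chromosome 4, 11 each on 9 and 10, 8 on 6, 6 on 8, 4 on 7 and 2 on 5. Chromosomes 9 and 10 hold 8.09 and 8.36% of the tested genes, and chromosome 5 holds 5.31%. There are 5 pairs of members within 10 places of each other in the order of identifiers. *SORBI_3002G338000* and *SORBI_3002G338100* are direct neighbours, and *LFNR1* (*SORBI_3003G431700*) and *SORBI_3003G431900* have 1 identifier between them. The members of the first pair differed in profile. *SORBI_3002G338000* stood at 1533, 1609 and 2829 CPM in epi-F3 low and 1397 and 2336 CPM in epi-F3 high, and *SORBI_3002G338100* at 1064, 1429 and 1010 CPM and 1275 and 877 CPM.

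The 7 abundant genes left out of the members took 2.73 to 2.98% of counts over the epi-F3 low plants, and 2.88% in plant 1 and 1.90% in plant 3 of epi-F3 high. Plant 3 of epi-F3 high had the lowest share of these genes as well as of the members.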
